A study of Mus musculus with 6 samples.

Results

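The Fc receptor genes Fcgr1, Fcgr2b, Fcgr3, Fcgr4, Fcer1g, Fcer1a and Fcgrt were taken by name from the probe annotation of a mouse expression array, which gave 9 probes for the 7 genes among 56605 probes. Of these, 8 probes of 6 genes passed the filter on dim probes, which kept 27867 probes of 20817 genes, and the Fcer1a probe did not. The arrays profiled 3 fractions of sublingual mucosa cells, sorted from the inbred mouse strain BALB/c, with 2 arrays per fraction from independent experiments. Fr3 was the F4/80+CD206hi fraction, Fr2 the CD11c-F4/80+CD206- fraction and Fr1 the CD11c+CD206- fraction, where F4/80 is a macrophage surface antigen, CD206 the mannose receptor and CD11c an integrin of dendritic cells and many macrophages. All 3 fractions came from mice whose mucosa had been painted repeatedly with FITC, a fluorescent dye that acts as a contact sensitiser, and no fraction from unpainted mice was measured here. The fractions were collected after digestion of tongue tissue, and their RNA was amplified with a kit for very small inputs before Cy3 labelling. The number, age and sex of the mice are not given in the sources used here. The comparisons address how the macrophage and dendritic cell subsets of this mucosa differ.

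Fc receptors bind the constant part of antibodies and so couple antibody to the cells that carry them. In mice, Fcgr1, Fcgr3 and Fcgr4 encode activating IgG receptors that signal through the common gamma chain encoded by Fcer1g, whose tyrosine motif recruits the kinase Syk, and Fcgr2b encodes the inhibitory IgG receptor, whose motif recruits the phosphatase SHIP. Fcgrt encodes the heavy chain of the neonatal receptor FcRn, which pairs with beta-2 microglobulin, binds IgG and albumin in acidic endosomes and returns them to the cell surface, and Fcer1a encodes the IgE-binding chain of the high-affinity IgE receptor of mast cells and basophils.

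Levels are log2 signals relative to the 75th percentile of the same array, so 0 is that percentile, and a level of one probe was not set against that of another. Spots well above background made up 44.6% to 52.4% of an array and 0 spots were saturated. Both Fr3 and both Fr1 arrays lay on 1 slide and both Fr2 arrays on the other, so that slide and fraction cannot be told apart in any comparison with Fr2. Mrc1, which encodes CD206, was at 3.23 ± 0.79 in Fr3 and at 0.49 ± 0.22 in Fr2 (SD, n = 2 each). Its probes did not reach well above background in Fr1, and Fr3 was at least 44.9-fold above Fr1 (limma adjusted p = 0.0739). Itgax, for CD11c, was at 0.20 and 0.95 in Fr3, 2.77 and 1.20 in Fr2 and 2.71 and 2.35 in Fr1. Fr3 was lowest, while Fr2 and Fr1 overlapped, so Itgax signal did not separate these 2 fractions. Of 2 other Itgax probes, 1 had the opposite sign between Fr2 and Fr1. Adgre1, for F4/80, was at 5.39 in Fr3, 5.95 in Fr2 and 4.44 in Fr1 on average. Replicate arrays correlated across probes with r = 0.780 in Fr3, 0.878 in Fr2 and 0.866 in Fr1, where probes are not independent replicates.

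The Fr3 pair differed along the base composition of the probes, and the sequences of 4 member probes are shown because they span that range. Capitals mark the T bases, the letters are those of the files, and the coordinates are on mm9, all on the minus strand. No annotation of the probes by exon or UTR was used here.
Fcgrt, chr7:52350556-52350615: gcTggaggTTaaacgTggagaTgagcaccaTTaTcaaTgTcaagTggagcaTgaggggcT
Fcgr3, brighter probe, chr1:172984129-172984188: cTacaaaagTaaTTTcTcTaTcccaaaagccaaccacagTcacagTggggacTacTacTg
Fcgr2b, dimmer probe, chr1:172895833-172895892: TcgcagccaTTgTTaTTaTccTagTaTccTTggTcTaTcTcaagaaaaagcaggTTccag
Fcgr1, chr3:96088462-96088521: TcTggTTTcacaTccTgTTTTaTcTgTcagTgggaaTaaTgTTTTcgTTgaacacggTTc
T made up 21.7% of the Fcgrt and the brighter Fcgr3 probe, 31.7% of the dimmer Fcgr2b probe and 41.7% of the Fcgr1 probe. Over all kept probes the median of Fr3 replicate 2 minus replicate 1 was 0.61 at 20% to 25% T and -1.39 at 40% T or more, and in Fr1 it was 0.47 and -0.89. The members did not follow that gradient closely. Replicate 2 minus replicate 1 was -0.04 for Fcgrt, 0.45 for the brighter Fcgr3 probe, -0.17 for the dimmer Fcgr2b probe and -0.15 for Fcgr1. The dimmer Fcgr3 probe had the widest Fr3 pair among the members that passed the filter, with 1.27 higher on replicate 2.

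**Figure D1:**
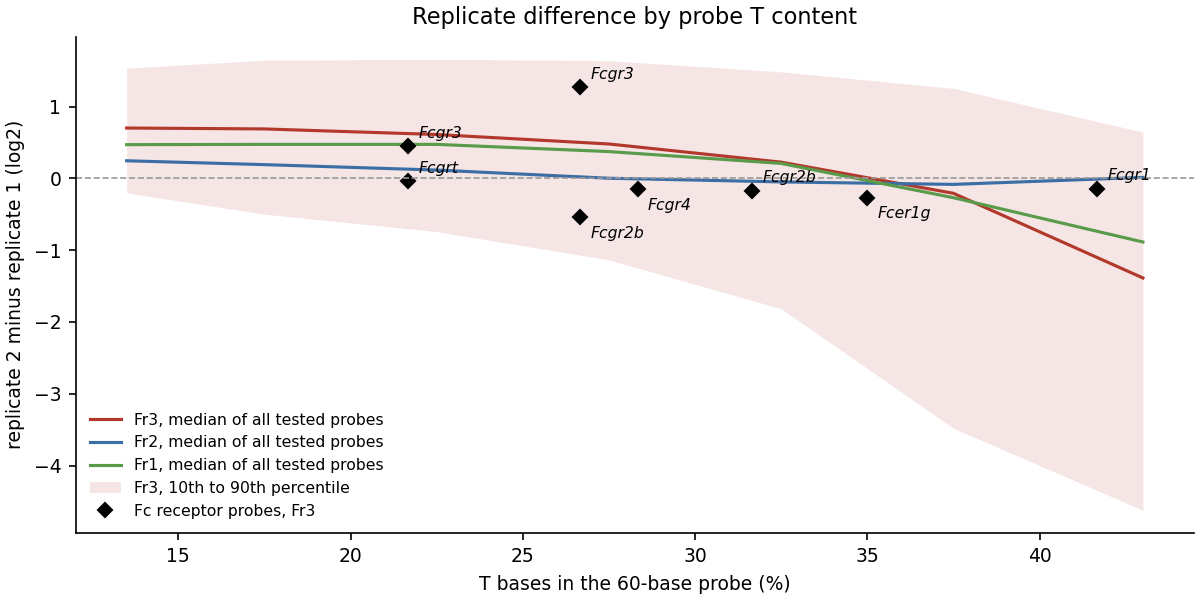
Difference between replicate arrays (log2, replicate 2 minus replicate 1) against the percentage of T in the probe, with lines for the median of all kept probes in Fr3, Fr2 and Fr1, a band for the 10th to 90th percentile in Fr3 and diamonds for the member probes in Fr3. In Fr3 the median was 0.61 at 20% to 25% T and -1.39 at 40% T or more, and the Fcgr1 probe, with 41.7% T, lay at -0.15.

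The members fell into different orders across the fractions. Fcgrt and Fcgr2b were highest on both Fr3 arrays, Fcgr3 was higher in Fr3 and in Fr2 than in Fr1, Fcgr4 was lowest on both Fr3 arrays, and Fcer1g was bright on all 6 arrays. No member probe passed an adjusted p of 0.05 in any of the 3 comparisons, so these orders describe the arrays. In a bulk sorted fraction, fewer cells of a type and less RNA per cell cannot be told apart.

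**Figure D2:**
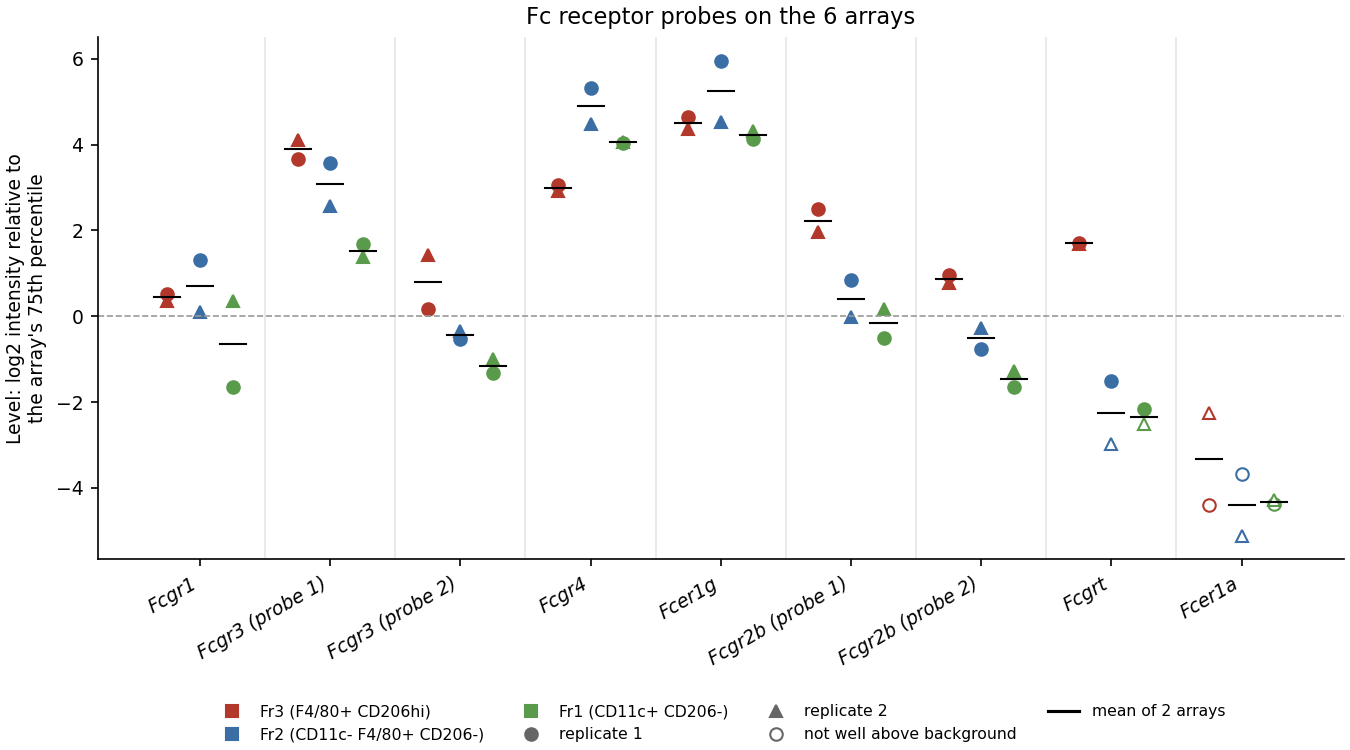
Level of each member probe on each of the 6 arrays (log2 signal relative to the array's 75th percentile), with Fr3, Fr2 and Fr1 side by side, circles for replicate 1, triangles for replicate 2, bars for means and open points where the probe was not well above background. Probe 1 of a gene is the brighter one. Fcgrt was at 1.72 and 1.68 on the Fr3 arrays and below -1.50 on the other 4, and Fcgr4 was at 3.06 and 2.91 on the Fr3 arrays and above 4 on the other 4.

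Among the activating receptors, Fcgr3, which encodes the low-affinity receptor for IgG immune complexes, had 2 probes. The brighter probe was at 3.67 and 4.11 in Fr3, 3.58 and 2.56 in Fr2 and 1.69 and 1.37 in Fr1. All Fr3 values lay above all Fr2 values and these above all Fr1 values, although Fr3 replicate 1 and Fr2 replicate 1 were close. The dimmer probe, at chr1:172981647-172981722 (mm9, minus strand), was at 0.16 and 1.43 in Fr3, -0.54 and -0.34 in Fr2 and -1.31 and -1.0 in Fr1, in the same order. The difference of Fr3 from Fr1 was 2.36 ± 0.62 (SE) for the brighter probe, a 5.13-fold higher mean signal, with a limma adjusted p of 0.322. For the dimmer probe it was 1.95 ± 0.64, with an adjusted p of 0.434, and 0.63 with normexp. Normexp is a background correction, run here with an offset of 50 added to each spot. The 75th percentile of processed intensity was 27.4 to 44.1 across arrays, so this offset by itself shrinks the differences of dim probes. Fr3 and Fr2 differed by 0.82 ± 0.62 and 1.23 ± 0.64 at the brighter and the dimmer probe (limma adjusted p = 0.644 and 0.574). At the brighter probe this was within about the spread, and the nearest arrays were 0.09 apart. At the dimmer probe the nearest arrays were 0.49 apart. Fr2 lay above Fr1 by 1.54 ± 0.62 at the brighter probe (adjusted p = 0.482) and by 0.72 ± 0.64 at the dimmer one (adjusted p = 0.746).

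Fcgr4 encodes a receptor of mouse myeloid cells for IgG subclasses made in inflammation, and it ran the other way. Its probe, at chr1:172959738-172959797 (mm9, plus strand), was at 3.06 and 2.91 in Fr3, 5.32 and 4.49 in Fr2 and 4.04 and 4.06 in Fr1. The 3 fractions did not overlap, with Fr3 lowest and Fr2 highest. Replicates lay within 0.15 of each other in Fr3 and within 0.03 in Fr1, while the Fr2 pair was 0.83 apart. Fr3 was 3.78-fold below Fr2, with a log2 difference of -1.92 ± 0.58 (limma adjusted p = 0.348). Fr3 was 2.10-fold below Fr1, at -1.07 ± 0.58 (adjusted p = 0.612). Fr2 and Fr1 differed by 0.85 ± 0.58 (adjusted p = 0.652), about the gap within the Fr2 pair.

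Fcgr1 encodes the high-affinity IgG receptor, which can bind monomeric IgG. It was at 0.51 and 0.37 in Fr3, 1.32 and 0.09 in Fr2 and -1.65 and 0.36 in Fr1. The Fr3 pair was tight, the Fr2 pair enclosed it, and Fr1 replicate 2 sat 0.001 below the lower Fr3 value. Fr1 replicate 1 alone was low, and the gap of 2.02 within Fr1 was wider than any difference between fractions. Fr3 minus Fr1 was 1.08 ± 0.83 (limma adjusted p = 0.712), Fr3 minus Fr2 was -0.26 ± 0.83 (adjusted p = 0.918) and Fr2 minus Fr1 was 1.35 ± 0.83 (adjusted p = 0.622). Without Fr2 replicate 1 the Fr3 minus Fr2 value turned to 0.35, so no order of the fractions was established for this gene.

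Fcer1g, the signalling chain shared by the activating receptors, was at 4.63 and 4.37 in Fr3, 5.96 and 4.52 in Fr2 and 4.13 and 4.32 in Fr1 (probe at chr1:173159794-173159853, mm9, minus strand). Fr2 replicate 1 stood above the other 5 arrays, which lay within 0.51 of each other. Fr2 and Fr3 overlapped, and both lay above Fr1. Fr3 minus Fr1 was 0.28 ± 0.67 (limma adjusted p = 0.942), Fr3 minus Fr2 was -0.74 ± 0.67 (adjusted p = 0.690) and Fr2 minus Fr1 was 1.02 ± 0.67 (adjusted p = 0.640). Only a small difference of Fr3 from Fr1 was measured for the chain, and with quantile normalization its sign turned, to -0.030.

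Fcgr2b, the inhibitory receptor, also had 2 probes, and both were highest in Fr3. The brighter probe, at chr1:172890988-172891047 (mm9, minus strand), was at 2.50 and 1.95 in Fr3, 0.84 and -0.01 in Fr2 and -0.50 and 0.17 in Fr1. Every Fr3 value lay above every Fr2 and Fr1 value, and Fr2 and Fr1 overlapped. The dimmer probe was at 0.96 and 0.79 in Fr3, -0.76 and -0.27 in Fr2 and -1.66 and -1.28 in Fr1, and here the 3 fractions did not overlap. Fr3 exceeded Fr1 by 2.39 ± 0.63 at the brighter probe, a 5.25-fold higher mean signal (limma adjusted p = 0.322), and by 2.34 ± 0.56 at the dimmer probe, 5.06-fold (adjusted p = 0.282). The probes share no run of 20 bases, and with normexp their differences from Fr1 were 1.32 and 0.81. Fr3 exceeded Fr2 by 1.81 ± 0.63 and 1.39 ± 0.56 (adjusted p = 0.421 and 0.504). Fr2 and Fr1 differed by 0.58 ± 0.63 and 0.95 ± 0.56 (adjusted p = 0.798 and 0.609). The outer domains of Fcgr2b and Fcgr3 are closely related in sequence, and cross-hybridisation between their transcripts was not tested.

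Fcgrt stood highest in Fr3 relative to the other fractions. It was at 1.72 and 1.68 in Fr3, -1.51 and -2.99 in Fr2 and -2.17 and -2.50 in Fr1. Both Fr3 values stood far above the other 4, and replicate 2 of Fr2 and of Fr1 was not well above background, so the probe was above background on 4 of 6 arrays. Mean levels were 1.70 ± 0.03 in Fr3, -2.25 ± 1.04 in Fr2 and -2.34 ± 0.24 in Fr1 (SD, n = 2 each). Fr3 exceeded Fr1 by 4.03 ± 0.67, a 16.4-fold higher mean signal, with a limma adjusted p of 0.159, and exceeded Fr2 by 3.95 ± 0.67, or 15.4-fold, with an adjusted p of 0.135. Fr2 and Fr1 overlapped (0.09 ± 0.67, adjusted p = 0.980). The lower side rests on 1 measured array in each of Fr2 and Fr1, and the probe passed the filter through Fr3 alone. With normexp background correction the differences were 1.37 from Fr1 and 1.43 from Fr2, and Fcgrt was then not the member with the largest difference. The normexp offset of 50 lowers such differences for dim probes by construction. Without Fr3 replicate 1, a fit in which the lone Fr3 array is assumed to vary like the other groups, Fr3 minus Fr1 was 4.01 with an adjusted p of 0.0446, and 1436 of all 27867 probes were then called.

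B2m, the partner chain of FcRn, did not share that pattern. It was at 6.11 and 5.54 in Fr3, 7.15 and 6.01 in Fr2 and 5.79 and 5.62 in Fr1, and Fr3 overlapped both other fractions. Another B2m probe had the opposite sign in all 3 comparisons.

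Fcer1a, at chr1:175152865-175152924 (mm9, minus strand), was not well above background on any of the 6 arrays and was not tested. Its levels lay between -5.12 and -2.25. Of the 10 markers of mast cells and basophils, the cells known for this receptor, 4 were tested, and Cpa3 and Prss34, which encode proteases of these cells, were above background on no array. Mcpt4, Cma1, Ms4a2 and Mcpt8 did not pass the filter either. The filter itself selects the tested genes for signal. Of these, Tpsb2, Kit and Hdc were well above background on all 6 arrays and Gata2 on 5. Hdc, for histidine decarboxylase, was at 2.11 and 1.33 in Fr3, 3.25 and 4.96 in Fr2 and 2.58 and 3.97 in Fr1. The summed linear signal of the list, in units of each array's 75th percentile, was 10.4 and 4.60 in Fr3, 14.8 and 42.6 in Fr2 and 12.7 and 22.8 in Fr1.

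Between Fr3 and Fr1, 0 of the 8 member probes that passed the filter had an adjusted p under 0.05, as did 0% of all probes. At an unadjusted p under 0.05, 5 were higher in Fr3, where 5.85% of all probes were, and 0 were lower, where 2.88% were. These 5 probes belong to 3 genes, Fcgrt, Fcgr2b and Fcgr3. Arrays did not overlap for all 8, with 7 higher in Fr3 (22.7% of all probes) and 1, Fcgr4, lower (13.8%). Between Fr3 and Fr2, 0 of 8 passed the adjusted threshold, against 0.00359% of all probes (1 probe; with 1 probe a gene, 0.0048% of genes), and 3 were higher (4.35% of all) and 1 lower (5.35%) at an unadjusted p under 0.05. Without overlap, 5 were higher (22.7%) and 1 lower (20%). Between Fr2 and Fr1, 0 of 8 passed, as did 0% of all probes, 1 was higher (6.9%) and 0 lower (3.18%) at an unadjusted p under 0.05, and 5 were higher (23.3%) and 0 lower (21.7%) without overlap. Fcgrt passed the filter through Fr3 alone, and 2 genes contribute 2 probes each, so the counts are not of independent genes. With 2 arrays a group an exact two-sided permutation test cannot go below p = 0.333.

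**Figure D3:**
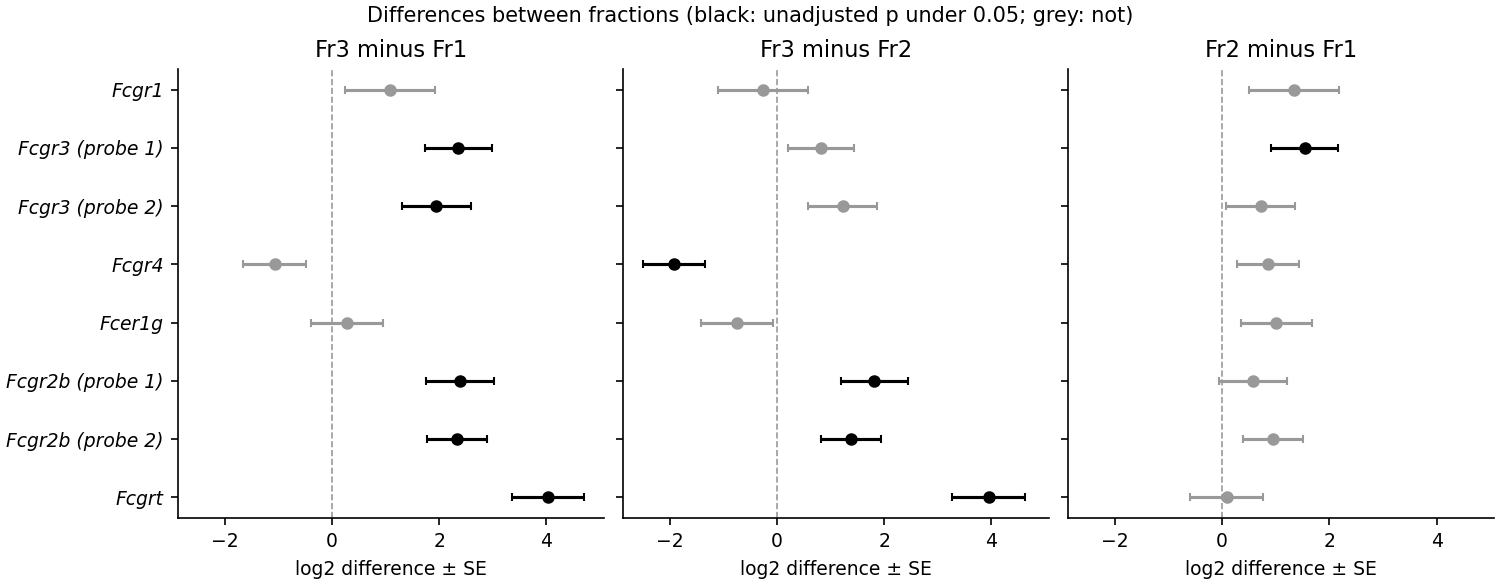
Log2 difference and its standard error for the 8 member probes that passed the filter, in the comparisons of Fr3 with Fr1, Fr3 with Fr2 and Fr2 with Fr1, in black where the unadjusted p was under 0.05. Fcgrt stood at 4.03 and 3.95 in the comparisons of Fr3, Fcgr2b between 1.39 and 2.39, and Fcgr4 at -1.07 and -1.92.

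Setting each gene against Fcgr2b within an array removes the scaling between arrays, a measure chosen after the levels had been seen and given as a description. Relative to the brighter Fcgr2b probe and to the Fr1 mean, Fcgr4 was at -3.66 and -3.26 in Fr3, 0.26 and 0.29 in Fr2 and 0.32 and -0.32 in Fr1. The Fr3 arrays stood apart and the Fr2 values lay inside the Fr1 pair. The ratio of Fcgr4 to Fcgr2b was thus 11.0-fold lower in Fr3 than in Fr1 (-3.46 ± 0.38 SE) and 13.3-fold lower than in Fr2 (-3.73 ± 0.20). The SE of a ratio was taken only from the arrays of the fractions compared, without the moderated variances of limma. It is therefore imprecise and not comparable with the SE of the differences above. With the dimmer Fcgr2b probe it was 10.6-fold and 9.89-fold lower. Fcer1g relative to Fcgr2b was lower in Fr3 than in Fr1 by 2.11 ± 0.28 on the log2 scale, and Fcgr1 by 1.31 ± 0.70. Fcgr3 kept its ratio to Fcgr2b between Fr3 and Fr1 within the spread (-0.03 ± 0.70, arrays overlapping), and between Fr3 and Fr2 it differed by -0.99 ± 0.50 for the brighter probes, without overlap, and by -0.57 ± 0.81, -0.59 ± 1.05 and -0.16 ± 0.73 for the other probe pairs, with overlap. The difference of Fcgrt was above that of Fcgr2b by 1.64 ± 0.56 from Fr1 and 2.13 ± 0.40 from Fr2, with Fcgrt below background on 1 array of each. With normexp these excesses were small, since Fcgrt and Fcgr2b then differed by 1.37 and 1.32 between Fr3 and Fr1 and by 1.43 and 1.1 between Fr3 and Fr2. The normexp offset of 50 shrinks the differences of the dimmest probes most, so these values cannot decide whether there was an excess. A ratio within an array shows unequal differences of the genes and not which of them differed.

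**Figure D4:**
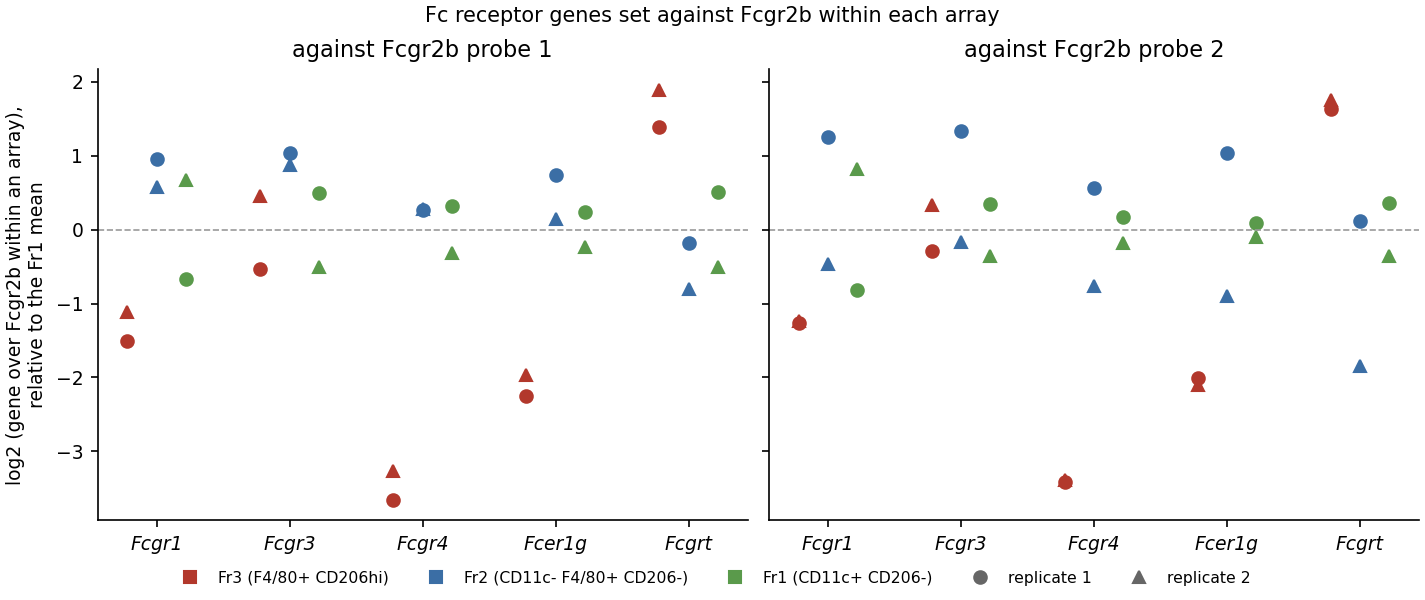
Log2 signal of 5 Fc receptor genes minus that of Fcgr2b on the same array, set relative to the Fr1 mean, with Fr3, Fr2 and Fr1 side by side (circles, replicate 1; triangles, replicate 2) and one panel for each Fcgr2b probe, the brighter at left. Fcgr4 lay at -3.66 and -3.26 on the Fr3 arrays in the left panel, with the other 4 arrays between -0.32 and 0.32.

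Replicates of Fr2 differed more than those of the other fractions at several members. Fr2 replicate 2 was below replicate 1 by 1.47 at Fcgrt, 1.44 at Fcer1g, 1.23 at Fcgr1, 1.01 at the brighter Fcgr3 probe, 0.85 at the brighter Fcgr2b probe and 0.83 at Fcgr4. It was above replicate 1 by 0.49 at the dimmer Fcgr2b probe and by 0.20 at the dimmer Fcgr3 probe. Macrophage markers moved with this, and their part in it was not tested. The summed signal of 11 tested macrophage genes was 284 and 259.6 in Fr3, 265 and 134 in Fr2 and 96.4 and 96.4 in Fr1.

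Markers of other myeloid cells also moved with the fractions, and their part in the member differences was not tested. Neutrophil markers summed to 139.6 and 139.5 in Fr3, 635 and 657 in Fr2 and 241 and 296 in Fr1, and 9 of 11 tested were lower in Fr3 than in Fr2 at an unadjusted p under 0.05, where 4.67% of all genes were, and 0 of 11 passed the adjusted threshold. Monocyte markers summed to 30.2 and 35.9 in Fr3, 246 and 143 in Fr2 and 96.7 and 62.5 in Fr1, and eosinophil markers to 7.32 and 12.5 in Fr3, 79.9 and 157 in Fr2 and 19.6 and 20.2 in Fr1. All 3 sums were lowest in Fr3 and highest in Fr2, which is also the order of Fcgr4. Markers of natural killer cells, which can carry Fcgr3, summed to 10.5 and 9.05 in Fr3, 10.6 and 16.7 in Fr2 and 25.3 and 23.3 in Fr1. Of the B and plasma cell markers, Cd79a, Jchain and Mzb1 were above background on no array, while Cd79b and Ms4a1 were on all 6 and Pax5, Ebf1 and Sdc1 on 5. Of the endothelial markers, Kdr, Tie1, Tek and Emcn were above background on no array, Vwf on all 6, Cdh5 and Egfl7 on 5, Flt1 on 4 and Cldn5 on 3. The lists of B and plasma cells and of endothelium, cells known for Fcgr2b, had 0 tested members at an unadjusted p under 0.05 in each comparison.

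The wider pathway was read through 6 lists, in which 0 genes passed the adjusted threshold in any comparison. Among 7 tested genes for other immunoglobulin-binding proteins, 2 were higher in Fr3 than in Fr1 at an unadjusted p under 0.05 and 0 lower, where 5.15% and 2.69% of all genes were. These were Fcrls, an Fc receptor-like gene, and Trim21, a receptor for antibody in the cytosol that passed the filter through Fr3 alone, so 1 of the other 6 genes was higher. Fcrls was at 3.84 and 5.43 in Fr3, 3.80 and 1.27 in Fr2 and 1.09 and 0.29 in Fr1 (Fr3 minus Fr1 3.94 ± 0.99, limma adjusted p = 0.307). Trim21 was above background in Fr3 only, at least 2.35-fold over Fr2 and at least 1.47-fold over Fr1. Fcgbp, which encodes a mucus protein that binds IgG Fc, was higher in Fr2, by 3.18 ± 0.94 over Fr1 (limma adjusted p = 0.385). It passed the filter through Fr2 alone, so the filter favoured its being counted as higher there. Replicate 2 of Fr1 and of Fr3 was not well above background for it. Pigr, the epithelial carrier of polymeric IgA, was bright in all fractions, at 6.92 in Fr3, 7.08 in Fr2 and 6.27 in Fr1 on average.

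Of 17 tested genes of activating signalling, not all of them specific to the gamma chain, 4 were lower in Fr3 than in Fr2 at an unadjusted p under 0.05 and 0 higher. Over all genes 4.67% were lower and 3.83% higher. The list median was -0.97 against 0.08 over all genes. Between Fr2 and Fr1, 3 were higher and 0 lower, where 6.17% and 3.09% of all genes were, with a median of 0.75 against -0.03. Between Fr3 and Fr1 the median was -0.19 against 0.05 over all genes. There 0 were higher and 1 lower, close to the shares of 5.15% and 2.69% over all genes. Lat2, an adaptor of the linker family, was at 2.41 and 2.72 in Fr3, 5.18 and 5.05 in Fr2 and 4.45 and 4.44 in Fr1, and was lower in Fr3 than in Fr2 by 2.55 ± 0.54 (limma adjusted p = 0.195). Tyrobp, which encodes the adaptor DAP12, was at 5.79 and 5.78 in Fr3, 7.48 and 7.69 in Fr2 and 5.99 and 6.07 in Fr1. Lcp2, which encodes the adaptor SLP-76, differed by 1.92 ± 0.66 between Fr2 and Fr1 (adjusted p = 0.438). Syk itself was at 1.01 and 1.96 in Fr3, 1.75 and 2.07 in Fr2 and 1.22 and 1.42 in Fr1, with Fr3 overlapping both.

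Of 14 genes of inhibitory signalling, 1 was higher and 1 lower in Fr3 than in Fr1, 0 higher and 1 lower in Fr3 than in Fr2, and 2 higher and 0 lower in Fr2 than in Fr1 at an unadjusted p under 0.05. The shares over all genes were 5.15% higher and 2.69% lower for Fr3 against Fr1, 3.83% and 4.67% for Fr3 against Fr2, and 6.17% and 3.09% for Fr2 against Fr1, so a count of 1 is close to the background. Inpp5d, which encodes the phosphatase SHIP recruited by Fcgr2b, was at -1.97 and -0.59 in Fr3, 0.44 and 0.55 in Fr2 and 0.32 and 1.30 in Fr1. Its Fr3 values lay below all others, opposite to the order of Fcgr2b (Fr3 minus Fr1 -2.09 ± 0.71, limma adjusted p = 0.454). Dok2, an adaptor that dampens tyrosine kinase signals, did not reach well above background in Fr1 and was at least 5.98-fold higher in Fr3 and at least 8.18-fold higher in Fr2. Sirpa, an inhibitory receptor for CD47, was 1.75 ± 0.66 higher in Fr2 than in Fr1, and another probe of Sirpa had the opposite sign.

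Of 9 receptors that pair with the gamma chain, 2 were lower and 0 higher in Fr3 than in Fr1 and likewise in Fr3 than in Fr2 at an unadjusted p under 0.05, with medians of -0.22 and -1.01, and 2.69% and 4.67% of all genes were lower in these comparisons. Cd300ld, an activating receptor of the CD300 family, was at -1.64 and -1.19 in Fr3, 0.93 and 1.46 in Fr2 and 0.09 and 0.05 in Fr1 (Fr3 minus Fr2 -2.61 ± 0.57, limma adjusted p = 0.202). Pira2, an activating receptor of the paired immunoglobulin-like family, was 1.91 ± 0.57 lower in Fr3 than in Fr2, and another of its probes had the opposite sign. Clec4d, a C-type lectin receptor, was at 1.88 and 2.14 in Fr3, 2.72 and 3.94 in Fr2 and 2.64 and 3.31 in Fr1, lowest in Fr3.

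Among 14 genes of endosome recycling, the route of FcRn, 0 were higher and 1 lower in Fr3 than in Fr1 at an unadjusted p under 0.05. Between Fr3 and Fr2, 1 was higher and 2 lower in Fr3. These counts are close to the shares over all genes (5.15% and 2.69%, and 3.83% and 4.67%). The gene higher than in Fr2, Exoc7, was well above background only in Fr3. It passed the filter through Fr3 alone, so the filter favoured its being counted as higher. Myo5b, which encodes a motor of recycling endosomes, was the lower gene between Fr3 and Fr1 and was also lower in Fr3 than in Fr2. The Myo5b probe tested did not reach well above background in Fr3 and was at -0.45 and 0.34 in Fr2 and -0.82 and 1.05 in Fr1. The signal of this probe in Fr3 was at least 5.79-fold lower than in Fr2 (limma adjusted p = 0.139) and at least 6.50-fold lower than in Fr1 (adjusted p = 0.169). Another probe of Myo5b, which was not kept, was well above background on an Fr3 array. These bounds therefore hold for the tested probe and not for the gene. Rab7, a GTPase of late endosomes, was at 6.05 and 6.42 in Fr3, 5.68 and 5.34 in Fr2 and 4.85 and 5.22 in Fr1, in the order of Fcgr3. Rab11fip1, an effector of the recycling GTPase Rab11, ran the other way between Fr3 and Fr2, at -0.53 and -0.31 in Fr3, 1.43 and 1.85 in Fr2 and 0.28 and 0.61 in Fr1 (Fr3 minus Fr2 -2.06 ± 0.56, limma adjusted p = 0.298). Of 15 genes of phagocytosis and the oxidase, 0 were higher and 2 lower in Fr3 than in Fr2, where 3.83% and 4.67% of all genes were, and 2 higher and 0 lower in Fr2 than in Fr1, where 6.17% and 3.09% were. Cyba, a membrane subunit of the oxidase, was at 4.84 and 4.31 in Fr3, 6.20 and 6.11 in Fr2 and 4.01 and 3.44 in Fr1 (Fr2 minus Fr1 2.43 ± 0.58, adjusted p = 0.316), and its 2 other probes had the opposite sign between Fr3 and Fr1.

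**Figure D5:**
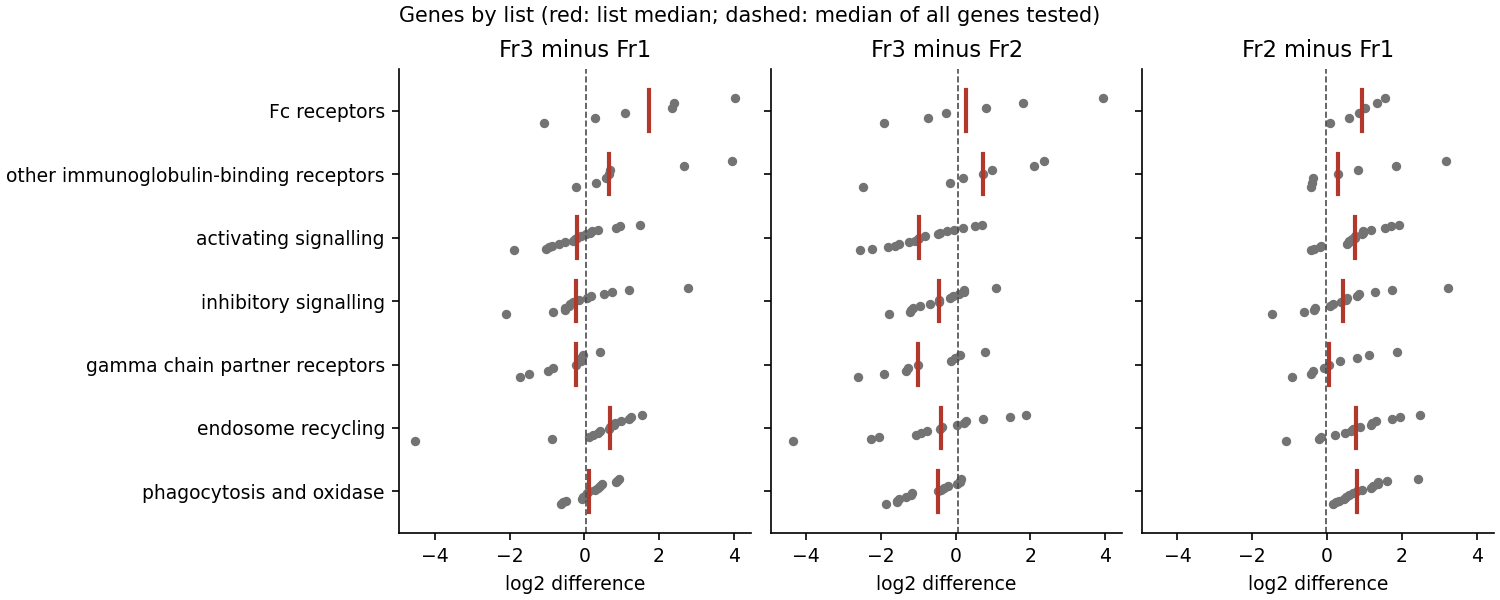
Log2 differences of the tested genes (points) among the Fc receptors and in each pathway list, with the list median in red and the median of all genes dashed, in the comparisons of Fr3 with Fr1, Fr3 with Fr2 and Fr2 with Fr1. Activating signalling had medians of -0.19, -0.97 and 0.75, against 0.05, 0.08 and -0.03 over all genes.

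The genes most like each member across the 6 arrays were named from 13147 genes by Pearson's r, as a description over points that share slides and amplification. Fcgrt was closest to Folr2, which encodes a folate receptor (r = 0.993), Mks1 (0.991) and Fcna, for ficolin A (0.991). Fcgr2b was closest to the interferon-inducible gene Ifi204 (0.992), the sorting nexin gene Snx2 (0.990) and Trf, for transferrin (0.989). Fcgr3 was closest to Stmn1, for stathmin (0.996), the adaptor gene Shc1 (0.994) and Scamp1 (0.988). Fcgr4 was closest to Hs1bp3 (0.992), the apolipoprotein B receptor gene Apobr (0.984) and Epb41l2 (0.984). Fcgr1 was closest to Chst4 (0.992), Prr11 (0.983) and Usp8 (0.978), and Fcer1g to Spef1l (0.992), Fcho2 (0.990) and Gse1 (0.984). With 6 arrays many genes reach such values, since between 84 (Fcer1g) and 310 (Fcgr3) genes had an r over 0.9 with a member.

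Promoters of the 3 activating receptors are shown because these genes share the gamma chain while their levels had different orders across the arrays. Each runs from 250 bases before to 50 after the start site, from RefSeq (GRCm38.p6), and all 7 genes matched the table, with the first of 2 windows shown for Fcgr3. A pair of motifs was searched on both strands, GAGGAA, the core letters of sites for the myeloid factor PU.1, and TTCNNNGAA, the letters of sites for STAT factors. Matches are in capitals.
Fcgr1, chr3:96293920-96294219, minus strand: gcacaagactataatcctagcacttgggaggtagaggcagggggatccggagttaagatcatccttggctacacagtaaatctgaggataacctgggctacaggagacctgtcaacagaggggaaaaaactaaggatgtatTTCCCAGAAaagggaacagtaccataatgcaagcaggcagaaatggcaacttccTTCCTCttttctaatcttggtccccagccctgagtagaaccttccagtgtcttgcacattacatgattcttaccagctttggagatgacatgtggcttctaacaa
Fcgr3, chr1:171059354-171059653, minus strand: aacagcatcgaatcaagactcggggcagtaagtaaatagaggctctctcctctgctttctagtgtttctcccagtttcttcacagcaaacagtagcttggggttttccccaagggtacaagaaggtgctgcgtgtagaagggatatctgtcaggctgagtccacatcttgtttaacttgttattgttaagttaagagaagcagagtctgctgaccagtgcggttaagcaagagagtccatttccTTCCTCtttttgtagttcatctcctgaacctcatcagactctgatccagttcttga
Fcgr4, chr1:171018676-171018975, plus strand: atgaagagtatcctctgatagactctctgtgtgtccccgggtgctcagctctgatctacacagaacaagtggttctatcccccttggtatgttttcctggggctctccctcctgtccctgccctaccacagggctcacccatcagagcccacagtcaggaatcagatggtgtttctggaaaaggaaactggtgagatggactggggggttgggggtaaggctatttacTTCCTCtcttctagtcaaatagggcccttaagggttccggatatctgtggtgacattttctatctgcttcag
GAGGAA was found in 4 of the 7 member promoters (Fcgr1, Fcgr3, Fcgr4 and Fcer1a) and in 28.3% of 27025 promoters of the same length. TTCNNNGAA was found in 1 of 7, that of Fcgr1, and in 8.47% of all. In the Fcgr1 promoter the matches opened at -109 (TTCNNNGAA) and -55 (GAGGAA) from the start site and did not overlap, and the GAGGAA match opened at -6 in Fcgr3 and -22 in Fcgr4. All 3 activating receptor promoters held GAGGAA, including that of Fcgr4, whose signal was lowest in Fr3, and that of Fcgr3, whose signal was highest there. A match is a description of letters and not of binding.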

How the data were processed

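RNA from 3 sorted fractions, 2 replicates each, was measured on 6 Agilent 1-colour arrays. Spot intensity was extracted by the authors in Agilent Feature Extraction (version 11.5.1.1) with background subtraction. This is per the file headers, which also give mm9 coordinates. The deposited value table holds log2 values made by the authors, with column medians of -2.43 to -2.25, and followed the log2 levels used here with r of at least 0.9999 and slopes of 0.996 to 1.00, in the same direction. Its centring differs: its values lay 0.32 to 0.35 above these levels.

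Control spots and 4 probes with an outlier flag were left out, spots of a probe were averaged, and log2 of the processed intensity minus the array's 75th percentile was taken. A probe was kept if some fraction had it well above background on each of its 2 arrays (27867 probes), and the brightest such probe stands for its gene. Of 56605 probes, 32994 were named by accession, 10224 by symbol and 520 by synonym through a RefSeq table, and 12867 kept the files' name. Differences were fitted with limma 3.58.1 in R 4.3.3 (3 group means over all 6 arrays, moderated variances, two-sided, Benjamini-Hochberg over all kept probes, called at an adjusted p under 0.05), with files read in Python 3.11.15. The fit was tested on simulated data. Where a gene, or for Myo5b only the tested probe, was not above background in a fraction, the fold is a bound. It is the brighter mean over a floor, set on each dim array as its lowest signal well above background, or the probe's signal if that is higher. Replicates came from independent experiments, per the series design; p-values measure only the spread between these arrays, and their small number limits precision.

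Named genes were all member probes, the sort markers, the 3 genes with the smallest p of each list and comparison, the 3 genes most like each member, and markers set beside a result; of the genes so chosen the text gives some, single genes are not reported here, and Syk, B2m and single list members shown for a pathway role were chosen with their values seen. The members and lists were chosen with earlier results of these data known. The replicate number does not pair the arrays by the rule that every pair exceeds 0.1: deviations correlated with r = 0.396 between Fr3 and Fr1, 0.0276 between Fr3 and Fr2 and 0.0988 between Fr2 and Fr1. Alternatives were background correction (normexp with an offset of 50), scaling, filters, the value table, fits of fewer arrays and the replicate as a block.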

Additional observations from a re-analysis of the deposited data

How the results depend on the processing

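The 24 member differences gave 366 values under alternative settings, of which 359 kept their direction and side of the threshold, 1 newly passed and 6 changed sign. Fcer1g, Fr3 minus Fr1, was -0.030 with quantile normalization. Fcgrt, Fr2 minus Fr1, was -0.063 with normexp, -0.10 with the percentile taken over detected probes, and -0.65 to 0.82 when 1 array was left out. Fcgr1, Fr3 minus Fr2, was -0.88 to 0.35 when 1 array was left out. Fcgrt, Fr3 minus Fr1, was 3.87 to 4.20 when 1 array was left out, and over all alternatives its adjusted p was 0.0446 to 0.570; its Fr3 minus Fr2 adjusted p was 0.0585 to 0.668. With normexp, whose offset of 50 shrinks them by construction, the Fr3 minus Fr1 differences of dim probes were lower. They were 0.81 at the dimmer Fcgr2b probe, 0.63 at the dimmer Fcgr3 probe and 1.32 at the brighter Fcgr2b probe. The number of all probes called moved more. For Fr3 minus Fr1 it was 0, and 1 over probes above background on all arrays, 10 without probes of over 30% T, 1 with 1 probe per gene, and 0 to 1436 when 1 array was left out (1436 without Fr3 replicate 1). For Fr3 minus Fr2 it was 1, and 21 with normexp, 0 with quantile normalization, 0 without the filter, 9 over probes above background on all arrays, 58 without probes of over 30% T, 0 with only these 2 fractions, and 0 to 822 when 1 array was left out (822 without Fr3 replicate 1). For Fr2 minus Fr1 it was 0, and 1 without probes of over 30% T. With the replicate block 0 probes were called in each comparison, and 3104 (Fr3 minus Fr1), 3482 (Fr3 minus Fr2) and 3606 (Fr2 minus Fr1) had an unadjusted p under 0.05. The cause of these moves in the number of probes called was not tested. Fcgr1, Fcer1g and the dimmer Fcgr2b probe have over 30% T and Fcgrt is below background on some arrays, so these have no value under those filters.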

Other observations

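The only probe called in any comparison, Gm2042 in Fr3 minus Fr2, is no Fc receptor probe. It was at 3.19 ± 0.10 in Fr3 (SD, n = 2), was not well above background in Fr2 or Fr1, and its Fr3 signal was at least 70.1-fold that in Fr2 (limma adjusted p = 0.0401). Among the members Fcgrt came nearest to the threshold, with an adjusted p of 0.135 in Fr3 minus Fr2 and 0.159 in Fr3 minus Fr1.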
